A study of Homo sapiens with 6 samples.

Results

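The 40 genes described here encode the machinery that buds vesicles into endosomes and sends some of them out of the cell. They comprise 23 members of the endosomal sorting complexes required for transport (ESCRT-0 to ESCRT-III), the 2 VPS4 ATPases, 3 genes of the ALIX-syntenin route, 3 tetraspanins, 5 RAB GTPases, 1 RAB effector, and 3 genes of ceramide production and membrane rafts. They were chosen by gene symbol, and all 40 were found among the 27328 loci of the deposited expression table.

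Expression was measured by RNA sequencing in SACC-83, an established line of salivary gland tumour cells of the adenoid cystic carcinoma type. The overexpression group (OE) held 3 libraries of SACC-83 cells made to overexpress a circular RNA, and the vector group held 3 libraries of SACC-83 cells carrying the vector, whose genotype label is WT. The study's design text speaks of circMYBL1, whereas the genotype labels read circMYBL1 for OE replicate 1, circMYBL2 for OE replicate 2 and circMYBL3 for OE replicate 3, and the titles give OE without naming a circular RNA. Their values are therefore given library by library. The labels leave out the promoter of the construct, the way it was delivered, the time after delivery and whether the cells were clonal. Nothing states that libraries of a group came from separate cultures, so each p-value reflects the spread of the libraries at hand, and part of that spread may be technical. The study's title links extracellular vesicles that carry circMYBL1 with metastasis, and the sequencing was meant to find genes that respond to the circular RNA.

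Cells make extracellular vesicles of endosomal origin by pinching the endosome's outer membrane inwards. ESCRT-0 gathers ubiquitinated cargo, ESCRT-I and ESCRT-II deform the membrane, ESCRT-III filaments cut the neck, and the VPS4 ATPases take the filaments apart. ALIX and syntenin connect syndecan cargo to ESCRT-III, tetraspanins organise membrane domains of the vesicles, and RAB GTPases carry the resulting multivesicular bodies to the lysosome or to the cell surface.

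Values are FPKM, a fragment number divided by the length of the gene and by the size of the library, as the authors computed it. The summed FPKM per library was 379404 to 408826 in OE and 371776 to 393350 in vector, and the number of reads behind each value is unknown. The MYBL1 locus, whose reads from the circle and from the linear mRNA cannot be told apart here, had 359, 44.0 and 2025 FPKM in OE replicates 1, 2 and 3, and 7.15 to 10.3 FPKM in vector. All 7 epithelial markers examined were above 1 FPKM in every library. Of 8 salivary and adenoid cystic carcinoma markers, 2 were above 1 FPKM in every library and 2 (KIT and AQP5) were listed at 0 in all. Of 3 leukocyte markers, PTPRC and CD3E were listed at 0 in every library and CD14 lay between 0.188 and 0.653 FPKM. The 2 libraries numbered 2, one of each group, stood apart from the other 4, and each result below is read against that difference.

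The members spanned a wide range of levels. By their mean over the 6 libraries, 5 members were at 100 FPKM or more, 21 lay between 10 and 100, 12 between 1 and 10, and 2 below 1. CD63, a tetraspanin of late endosomes and vesicles, was the highest by mean, with 337, 342 and 293 FPKM in OE and 264, 309 and 290.0 FPKM in vector. CD9, a tetraspanin of the plasma membrane, followed with a mean of 213 FPKM, then SDC4, a heparan sulfate proteoglycan that syntenin binds, with 195 FPKM. RAB7A, the late endosomal RAB, averaged 154 FPKM and CHMP4B, a filament-forming ESCRT-III subunit, averaged 103 FPKM. Of the 39 neighbouring pairs in this order only 5 had ranges that did not overlap, which were RAB7A over CHMP4B, CD81 over FLOT1, CHMP3 over VPS37B, VPS37B over CHMP2B and STAM2 over SYTL4. The order among the other neighbours lies within the spread of the libraries.

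Levels differed within each complex. In ESCRT-0, HGS, the subunit that binds ubiquitin and endosomal lipid, averaged 39.5 FPKM, while its partners STAM and STAM2 averaged 5.46 and 3.31 FPKM. In ESCRT-I, TSG101, which binds ubiquitinated cargo and viral budding motifs, averaged 26.3 FPKM and VPS37C 4.14 FPKM. In ESCRT-II, VPS25 and SNF8 averaged 45.8 and 43.1 FPKM and VPS36 7.59 FPKM. The 11 ESCRT-III genes ran from 8.73 FPKM for CHMP6 to 103 FPKM for CHMP4B.

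Low members were few. SYTL4, a RAB27 effector, lay between 0.506 and 0.951 FPKM in OE and between 0.198 and 1.06 FPKM in vector. SMPD3, which encodes the neutral sphingomyelinase that makes ceramide, lay between 0.384 and 0.491 FPKM in OE and between 0.220 and 0.440 FPKM in vector. Both were below the filter used for testing, an FPKM of at least 1 in at least 3 libraries, and 38 members were tested.

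**Figure D1:**
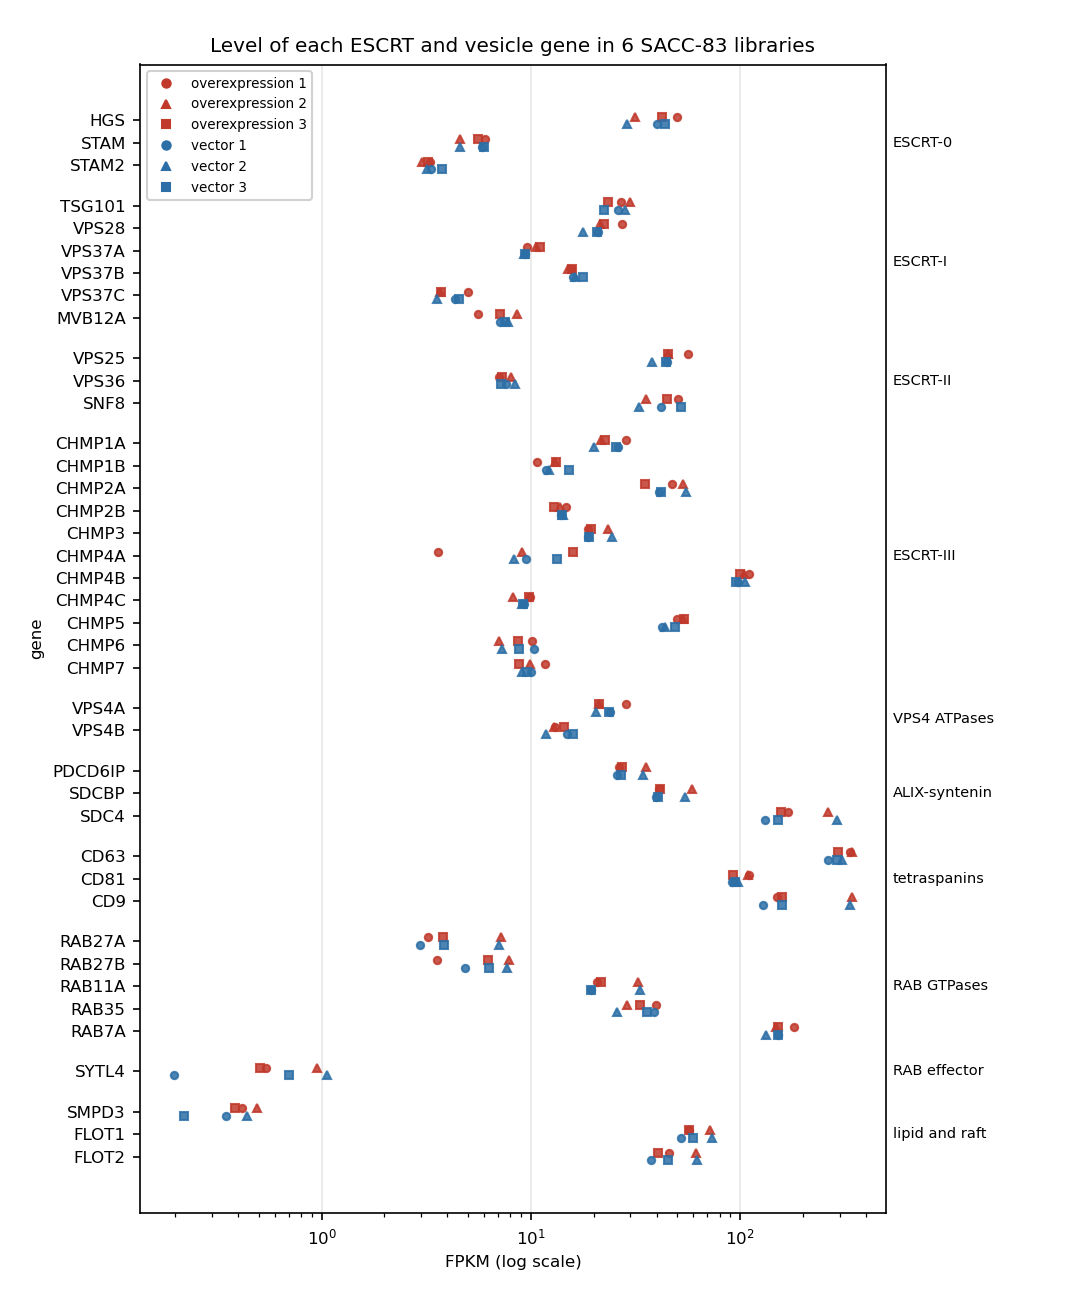
FPKM of the 40 genes (log scale, horizontal axis) in each library, arranged by complex or function. Red symbols are OE libraries and blue symbols vector libraries, with circles, triangles and squares for replicates 1, 2 and 3. CD63 lies highest by mean and SYTL4 and SMPD3 lie at about 1 FPKM or below. The triangles of CD9, SDC4, RAB27A and RAB11A stand to the right of the other symbols in both groups.

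Promoter sequences were read for the members to show what lies upstream of the genes that the values turn on. RefSeq sequences on GRCh38.p14 held 250 bases before the start of 30 members, with 48 starts. The 6-base E-box CACGTG, the core of the element through which TFEB and related factors act on lysosomal genes, was searched on both strands together with a longer palindrome that contains it and has GT before and AC after it. CACGTG occurred before 5 of the 48 member starts (10.4%), against 6.35% of all 35116 starts in the table, and the longer palindrome before 1 (2.08%), against 0.308%. The 5 windows of 40 bases are printed 5′ to 3′ on the strand of the gene, with the E-box in capitals. They lie at chr3:33798508-33798547 (plus strand) for PDCD6IP, chr12:55729167-55729206 (minus) for CD63, chr12:122896141-122896180 (minus) for VPS37B, chr13:52450297-52450336 (minus) for VPS36 and chr14:24213580-24213619 (minus) for CHMP4A.
PDCD6IP: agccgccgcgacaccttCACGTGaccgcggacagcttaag
CD63: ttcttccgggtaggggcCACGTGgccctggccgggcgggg
VPS37B: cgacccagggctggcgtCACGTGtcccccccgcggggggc
VPS36: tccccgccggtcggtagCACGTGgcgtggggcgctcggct
CHMP4A: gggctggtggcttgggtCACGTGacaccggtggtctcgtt
The E-box began 39 bases before the start in VPS37B and 180 bases before it in CD63, with the other 3 between these. Only CHMP4A held the longer palindrome. These are matches of letters and show neither binding nor an effect on the levels.

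The 150 bases before the starts of SDC4 (chr20:45348425-45348574, minus strand) and RAB11A (chr15:65869341-65869490, plus strand) are shown because both genes were higher in the replicate 2 libraries, as described below. Capitals mark GGGNNTTCC, a pattern close to the site of NF-kB, and TATAA, the core of the TATA box. Both patterns were searched on both strands after these sequences had been seen.
SDC4: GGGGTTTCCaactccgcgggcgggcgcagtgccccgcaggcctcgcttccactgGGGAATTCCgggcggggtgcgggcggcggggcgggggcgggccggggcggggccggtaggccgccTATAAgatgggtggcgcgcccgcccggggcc
RAB11A: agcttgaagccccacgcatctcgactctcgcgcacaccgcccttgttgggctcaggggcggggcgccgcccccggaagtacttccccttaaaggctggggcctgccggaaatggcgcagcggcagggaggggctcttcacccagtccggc
SDC4 held GGGNNTTCC at 150 and 96 bases before its start and TATAA at 31 bases before it, while the RAB11A stretch held none of the 4 patterns. Over all promoters GGGNNTTCC occurred in 5.78% and TATAA in 18.9%, and over the member starts in 12.5% and 8.33%. The GC content was 80.7% for the SDC4 stretch and 69.3% for the RAB11A stretch.

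Between OE and vector, no member changed past the threshold. The test was limma on log2(FPKM + 1) over all 12064 genes that passed the filter, 2-sided, with Benjamini-Hochberg adjustment and a threshold of 0.05. It called 0 of 38 members, and 0% of all tested genes. At an unadjusted p under 0.05 it held 0 members and 65 of all genes. The lowest adjusted p of any gene was above the threshold, and that of every member rounded to 1. With replicate number as a block in the same model, 0 members and 12 of all genes (0.0995%) passed, and 2 members and 868 genes had an unadjusted p under 0.05.

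On average 24 tested members were higher and 14 lower in OE, against 7006 and 5058 of all genes. The median log2 fold change of the members was 0.03, the same as that of all genes, and single values ran from -0.28 for CHMP4A to 0.24 for VPS28. A p that misses the threshold does not show that a member is equal in the groups, and the plot of differences gives the 95% interval of each. In the fit without the block, the interval for CHMP5 ran from -0.08 to 0.52, and for CD9 from -0.97 to 1.14. With the block it was narrower, 0.016 to 0.417 for CHMP5, 0.019 to 0.456 for VPS28 and -0.114 to 0.285 for CD9. Those of CHMP5 and VPS28, the 2 members with an unadjusted p under 0.05 in the block fit, left out 0. These intervals are not adjusted for the number of genes, and neither member passed after adjustment.

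In 4 members every OE library was above every vector library, namely VPS28, VPS37A, VPS25 and CHMP5, against 2.50% of all genes. In 1 member, VPS37B, every OE library was below every vector library, against 0.845% of all genes. All 5 belong to ESCRT-I, ESCRT-II or ESCRT-III, which hold 6, 3 and 11 of the 38 tested members. None of the 5 was called, and no trait of these complexes is read from them. Counted by same-numbered pairs of libraries, 9 members were higher in OE in 3 of 3 pairs, against 16.5% of all genes, and 3 members were lower in 3 of 3, against 11.9%.

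VPS28, a core ESCRT-I subunit, had 27.2, 21.4 and 22.3 FPKM in OE and 20.9, 17.9 and 20.8 FPKM in vector. OE replicate 1 was the highest and vector replicate 2 the lowest, and the groups did not overlap. The difference was 0.24 ± 0.15 on the log2 scale (SE). limma gave an adjusted p of 1.0, or 0.645 with the block. VPS25, the ESCRT-II subunit that binds CHMP6, had 56.8, 45.5 and 45.2 FPKM in OE and 45.0, 37.8 and 44.3 FPKM in vector, where the lowest OE library lay just above the highest vector library. Its log2 difference was 0.21 ± 0.15 (SE).

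CHMP5, an ESCRT-III subunit that works with the VPS4 cofactor VTA1, had 50.01, 53.5 and 54.0 FPKM in OE and 42.5, 43.8 and 49.0 FPKM in vector. The gap between the groups was small beside the spread of the vector libraries. On the log2 scale the groups differed by 0.22 ± 0.13 (SE), with an adjusted p from limma of 1.0, or 0.650 with the block.

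The VPS37 paralogues, alternative subunits of ESCRT-I, differed from each other in direction on average. VPS37A had 9.57, 10.6 and 11.1 FPKM in OE and 9.38, 9.33 and 9.38 FPKM in vector. VPS37B had 15.5, 15.02 and 15.8 FPKM in OE and 15.9, 16.3 and 17.7 FPKM in vector. In both genes the ranges were separate, with VPS37A higher and VPS37B lower in OE. VPS37C, with 5.004, 3.70 and 3.71 FPKM in OE and 4.33, 3.55 and 4.52 FPKM in vector, overlapped. The share of VPS37B in the summed FPKM of the 3 paralogues was 51.5% ± 0.24 in OE and 55.2% ± 1.29 in vector (SD, n = 3 each), and every OE library was below every vector library. An exact permutation test of 3 against 3 libraries cannot give a 2-sided p under 0.1, and none was run on this share, which was not chosen independently of these data.

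The first subunits of the pathway overlapped between the groups. HGS had 50.1, 31.7 and 42.3 FPKM in OE and 40.3, 28.8 and 44.0 FPKM in vector, and in each group replicate 2 was the lowest. TSG101 had 27.2, 30.0 and 23.4 FPKM in OE and 26.3, 28.4 and 22.4 FPKM in vector, higher in OE in each of the 3 numbered pairs by log2 differences of 0.05, 0.08 and 0.06. The median log2 fold change was -0.01 over ESCRT-0, 0.03 over ESCRT-I and 0.05 over ESCRT-II.

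Of the 11 ESCRT-III genes, 5 were higher and 6 lower in OE on average, and their median log2 fold change was -0.01. CHMP4B had 111, 105 and 100.2 FPKM in OE and 98.04, 106 and 95.9 FPKM in vector, and CHMP4C, which also acts in the abscission checkpoint, had 9.87, 8.22 and 9.82 FPKM in OE and 9.30, 9.08 and 9.19 FPKM in vector. Both overlapped between the groups. CHMP4A had 3.59, 9.10 and 15.9 FPKM in OE and 9.53, 8.35 and 13.3 FPKM in vector.

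OE replicate 1 alone held the low CHMP4A value and set the sign of its log2 fold change, which was -0.28 ± 0.45 (SE) with all libraries and 0.22 without OE replicate 1. Of the annotated exon bases of CHMP4A on GRCh38 (GENCODE release 29, chr14:24209583-24213869, minus strand), 26.7% are shared with AL136295.1 on the same strand, a locus that runs through it. That locus was at 1.55 FPKM in OE replicate 1 and listed at 0 in the other 5 libraries. The counting may divide reads between these loci, and summed they gave 5.14, 9.10 and 15.9 FPKM in OE against 9.53, 8.35 and 13.3 FPKM in vector. In this sum OE replicate 1 was still the lowest of all libraries. FPKM is divided by the length of each locus, so the sum only roughly stands for reads put back together. Whether division of reads lowered CHMP4A in OE replicate 1 was not tested. AL096870.2 shares a larger part of the CHMP4A exon bases on the same strand (68.79%), but it is not among the deposited loci. Other members also share exons on the same strand, as CHMP3 does with RNF103-CHMP3 (10.8%) and VPS4A with AC026464.4 (21.0%), but these partner loci were at no more than 0.358 and 0.622 FPKM. The partners of VPS37B (AC027290.2, 27.85%) and MVB12A (BISPR, 14.98%) are also not among the deposited loci, so their levels are unknown.

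The VPS4 ATPases overlapped between the groups. VPS4A had 28.6, 21.3 and 21.2 FPKM in OE and 24.0, 20.6 and 23.6 FPKM in vector, and VPS4B had 13.1, 12.99 and 14.4 FPKM in OE and 14.9, 11.8 and 15.9 FPKM in vector. VPS4A made up 63.4% ± 4.66 of their summed FPKM in OE and 61.7% ± 1.90 in vector (SD, n = 3 each).

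Outside ESCRT and VPS4, 12 of 13 tested members were higher in OE on average and 1, RAB27B, was lower, with no call and overlapping ranges in all 13. Of all tested genes 7006 were higher and 5058 lower. The median log2 fold change of the 13 members was 0.06, and by numbered pair it was 0.13 in replicates 1, 0.03 in replicates 2 and -0.01 in replicates 3. Over all genes the pair medians were 0.06, 0.04 and -0.03. FLOT1 and FLOT2 reversed under quantile scaling, library weights and the GC correction. With some libraries left out, CD9, SDC4, RAB27A, RAB27B, FLOT1 and FLOT2 reversed. The tetraspanins had a median of 0.14, with CD63 at 0.17 ± 0.14, CD81 at 0.14 ± 0.13 and CD9 at 0.09 ± 0.44 (SE, limma). CD81, a tetraspanin that marks small vesicles, had 111, 109.8 and 92.9 FPKM in OE and 91.6, 97.5 and 94.8 FPKM in vector. The tetraspanin median was 0.02 with the block and GC correction, 0.04 with library weights and 0.08 with quantile scaling, and the order of the class medians changed between settings. The median was 0.06 over the ALIX-syntenin genes, 0.04 over the RAB GTPases and 0.03 over the flotillins. RAB7A had 182, 149 and 152 FPKM in OE and 152, 134 and 153 FPKM in vector.

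The difference between the libraries numbered 1 varied with base composition. Across the 11166 genes with annotated GC content, the OE minus vector difference of replicates 1 had a Spearman correlation of 0.533 with GC content, against 0.117 and -0.091 for replicates 2 and 3. Over the 38 members the values were 0.399, 0.205 and -0.221. For the number differences described below, the correlation over the members was -0.403 for number 2 minus number 1, -0.257 for number 2 minus number 3 and 0.442 for number 1 minus number 3, and over all genes -0.062, 0.038 and 0.233. Genes of a library share its preparation, so these are descriptions, and the part of base composition in the group and number differences was not tested beyond the corrected fit given with the processing alternatives.

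**Figure D2:**
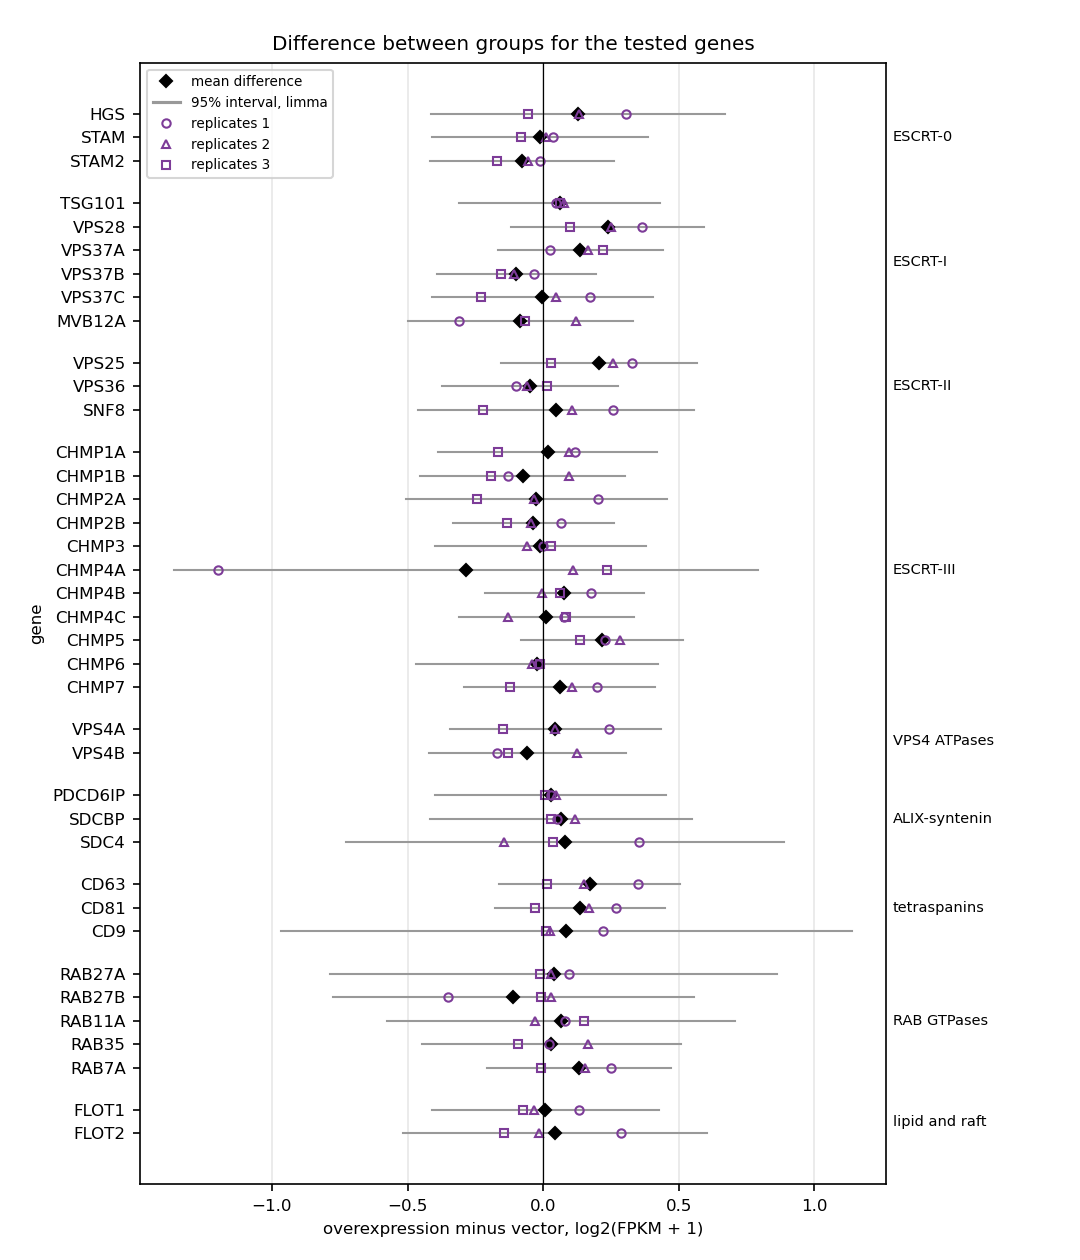
Difference in log2(FPKM + 1), OE minus vector, for the 38 tested genes, arranged by complex or function. Black diamonds are the means of 3 against 3 libraries, grey lines their 95% intervals from limma, and open purple symbols the differences of same-numbered libraries. All intervals, drawn from the fit without the block, include 0. CHMP4A has a replicate 1 difference of -1.199 that stands apart from its other 2 pairs.

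By replicate number, 15 members differed between the libraries, led by CD9, RAB27A, SDC4 and RAB11A, all higher in the libraries numbered 2. In the model with group and replicate number, limma's F test of number (adjusted over all genes) called these 15 of 38 members, 39.5%, against 46.5% of all tested genes. The share of the members is near the background, and nothing particular to vesicle genes is read from it. Of the 23 ESCRT-0 to ESCRT-III genes 5 passed, of the 2 VPS4 ATPases 0, and of the 13 tested members outside these complexes 10.

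In the pairwise contrasts, each adjusted over all genes, 10 members were higher in the replicate 2 libraries than in the replicate 1 libraries, against 29.5% of all genes, and 5 were lower, against 20.7%. Against the replicate 3 libraries, 9 members were higher in the replicate 2 libraries, beside 20.8% of all genes, and 2 were lower, beside 15.3%. Between replicates 1 and 3, 0 members were higher, against 0.0995% of all genes, and 0 lower, against 0.448%. The members that rose in the replicate 2 libraries against both other numbers were PDCD6IP, SDCBP, SDC4, CD9, RAB27A, RAB11A and FLOT2, and those that fell against both were HGS and SNF8. Both replicate 2 libraries lay above all other 4 in 36.84% of the tested members, against 35.86% of all genes. They lay below all other 4 in 28.95% of the members, against 25.71%. Being highest or lowest in these libraries is thus near the background and not particular to vesicle genes.

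CD9 showed the largest number difference of the members. It had 343 FPKM in OE replicate 2 and 337 FPKM in vector replicate 2, against 151 and 160 FPKM in OE replicates 1 and 3 and 129.6 and 158 FPKM in vector replicates 1 and 3. The replicate 2 libraries were more than 100 FPKM above every other library, and OE and vector libraries of the same number differed by less than libraries of different numbers did when one of them was number 2. The log2 difference, number 2 minus number 1, was 1.27 ± 0.11 (SE, limma, adjusted p = 2.7e-05), while the group difference of CD9 was 0.09. The share of CD9 in the summed FPKM of CD9, CD63 and CD81 was 43.1% in OE replicate 2 and 45.4% in vector replicate 2, against 25.3% to 29.2% in the other libraries. CD63 and CD81 were not called by number.

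All 3 genes of the ALIX-syntenin route passed and were higher in the replicate 2 libraries. SDC4 had 265 FPKM in OE replicate 2 and 293 FPKM in vector replicate 2, against 170 and 157 FPKM in OE replicates 1 and 3 and 133 and 153 FPKM in vector replicates 1 and 3. SDCBP, which encodes syntenin, had 59.2 and 54.6 FPKM in replicates 2 of OE and vector, against 39.8 to 41.4 FPKM in the other 4. PDCD6IP, which encodes ALIX, had 35.7 and 34.5 FPKM, against 25.9 to 27.3 FPKM in the other 4. In each gene the replicate 2 libraries stood above all others, and the log2 differences, number 2 minus number 1, were 0.89 for SDC4, 0.48 for SDCBP and 0.41 for PDCD6IP (adjusted p = 0.000477, 0.00508 and 0.0120, limma).

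Among the RAB GTPases 4 of 5 passed, in opposite directions. RAB27A, which docks multivesicular bodies at the plasma membrane, had 7.24 and 7.07 FPKM in replicates 2 of OE and vector, against 2.94 to 3.86 FPKM in the other 4 libraries. RAB27B, its paralogue, had 7.91 and 7.73 FPKM in replicates 2, against 3.58 and 6.26 FPKM in OE replicates 1 and 3 and 4.84 and 6.30 FPKM in vector replicates 1 and 3. RAB11A, the RAB of recycling endosomes, had 32.7 and 33.4 FPKM in replicates 2, against 19.4 to 21.6 FPKM in the other 4. These 3 genes were higher in the replicate 2 libraries than in any other library, with log2 differences, number 2 minus number 1, of 1.0 ± 0.13, 0.77 ± 0.14 and 0.69 ± 0.11 (SE, limma).

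RAB35, which acts in endocytic recycling, was lower there, with 28.99 and 25.7 FPKM in replicates 2 of OE and vector, against 33.5 to 39.6 FPKM in the other 4, and a log2 difference of -0.51 ± 0.12 (SE, limma, adjusted p = 0.00528). RAB7A was not called by number. RAB27A held 47.4%, 47.8% and 37.9% of the summed FPKM of the RAB27 paralogues in OE and 37.8%, 47.8% and 38.0% in vector, so that the share followed number 2 in both groups and OE replicate 1 as well.

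The flotillins, scaffold proteins of membrane rafts, both passed. FLOT2 had 61.7 and 62.3 FPKM in replicates 2 of OE and vector, against 37.5 to 46.0 FPKM in the other 4, and FLOT1 had 71.7 and 73.5 FPKM, against 52.2 to 59.98 FPKM. The replicate 2 libraries were above all others in both genes.

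In the ESCRT complexes the called genes were HGS, SNF8, CHMP2A, CHMP4A and CHMP6. HGS, with 31.7 and 28.8 FPKM in replicates 2 of OE and vector, was below the other 4 libraries at 40.3 to 50.1 FPKM, and SNF8, an ESCRT-II subunit, with 35.6 and 33.0 FPKM was below 42.2 to 52.6 FPKM. CHMP6, which nucleates ESCRT-III on VPS25, had 7.08 and 7.31 FPKM, against 8.70 to 10.3 FPKM. All 3 were lowest in the replicate 2 libraries.

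CHMP2A, an ESCRT-III subunit that recruits VPS4, was higher there, with 53.7 and 55.1 FPKM against 35.4 to 47.6 FPKM. CHMP4A passed the F test with no single contrast past the threshold, and its number 2 minus number 1 difference of 0.48 turned to -0.20 without OE replicate 1. Summed with AL136295.1 it was 0.27 (limma F test of number, adjusted p = 0.0118). No ESCRT-I gene and neither VPS4 gene passed the F test.

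The median log2 difference, number 2 minus number 1, was -0.03 over the ESCRT-0 to ESCRT-III genes, 0.12 over the tetraspanins, 0.69 over the RAB GTPases and 0.48 over the ALIX-syntenin genes, and 0.09 over all tested genes. Over the 11 other RAB and RAL genes examined with the wider pathway below, the same median was -0.005. For the 9 other tetraspanins tested there it was 0.74. The medians of the members are therefore not traits of RAB genes or tetraspanins in general. They are descriptions of lists chosen with results known, and the differences between the lists were not tested.

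**Figure D3:**
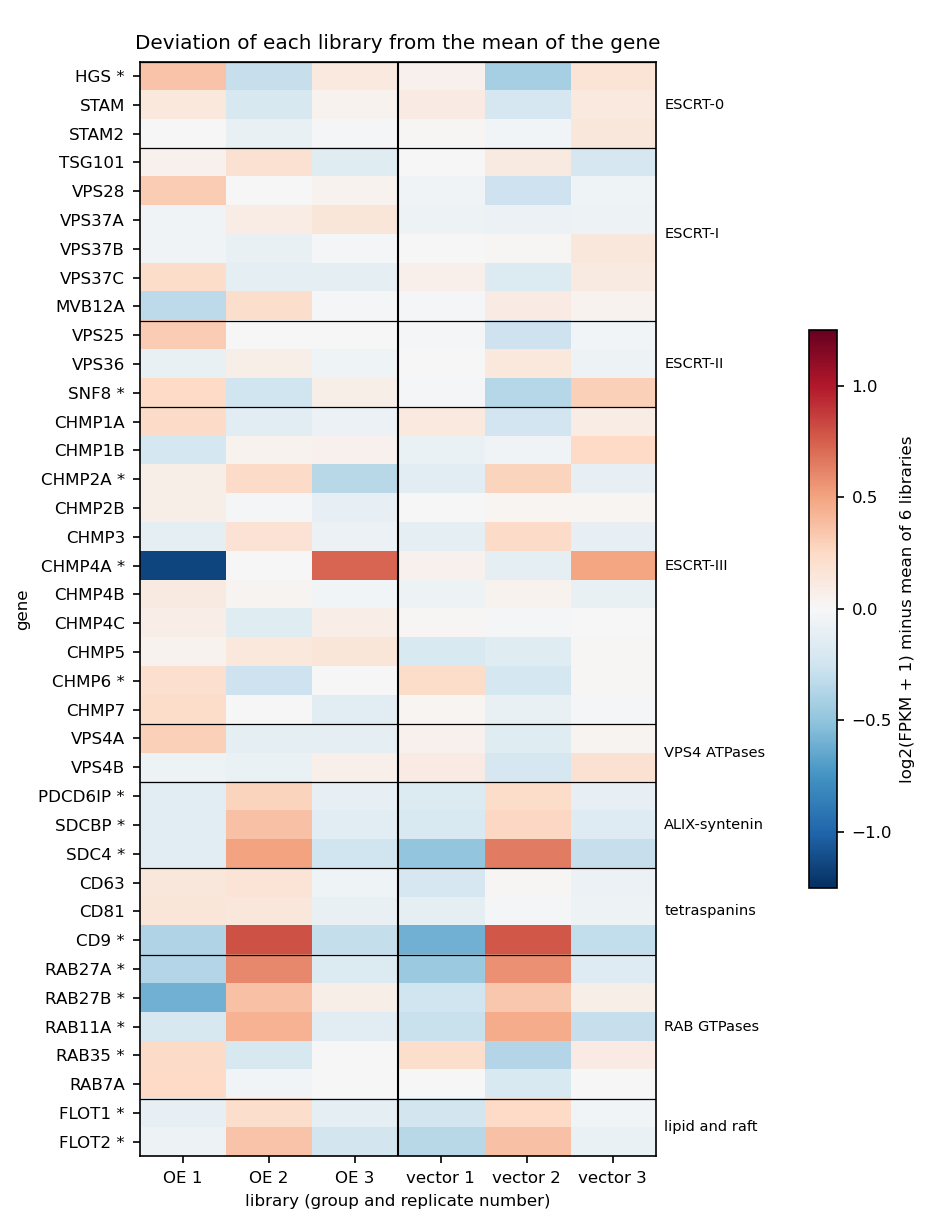
Deviation of log2(FPKM + 1) in each library from the mean of the gene over the 6 libraries (colour, red above and blue below), for the 38 tested genes. Columns are the 3 OE libraries and the 3 vector libraries, and an asterisk marks the 15 genes that limma called by replicate number. The columns of OE replicate 2 and vector replicate 2 resemble each other, red from PDCD6IP to SDC4 and in CD9, RAB27A, RAB11A and the flotillins and blue in HGS, SNF8 and RAB35.

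Marker genes of other cell types, and of the line's own type, also differed with number. PECAM1, an endothelial gene, had 0.985 and 1.27 FPKM in replicates 2 of OE and vector, against 0.027 to 0.074 FPKM in the other 4 libraries, and the sum of 3 endothelial markers was 1.38 and 1.71 FPKM against 0.101 to 0.289 FPKM. The sum of 3 fibroblast markers was 8.72 and 11.2 FPKM against 2.95 to 4.64 FPKM, nearly all from COL1A1. COL3A1 and DCN were under 0.1 FPKM in every library, and CDH5 was at most 0.138 FPKM. The sum of 8 salivary and adenoid cystic carcinoma markers was 36.6 and 45.5 FPKM against 15.2 to 20.7 FPKM, mostly from TP63, a basal cell transcription factor with 25.1 and 33.7 FPKM against 11.7 to 15.3 FPKM, and ACTA2, smooth muscle actin, with 8.02 and 7.24 FPKM against 1.39 to 3.84 FPKM.

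Several of the 7 epithelial markers differed with number, in opposite directions. The sum of all 7, with 2242 and 2060.4 FPKM in replicates 2 against 2168 to 2686 FPKM, does not show this. The basal keratin KRT5 had 347 and 412 FPKM in replicates 2 of OE and vector, against 94.9 to 142 FPKM in the other 4 libraries. KRT14 had 37.5 and 41.1 FPKM against 14.8 to 19.2 FPKM, and CDH1 had 20.1 and 21.3 FPKM against 8.61 to 14.6 FPKM. The simple epithelial keratin KRT7 was lower, with 304 and 234 FPKM against 428 to 679 FPKM, as was KRT8, with 877 and 741 FPKM against 912 to 1123 FPKM. EPCAM, with 83.0 and 76.3 FPKM against 80.1 to 88.5 FPKM, overlapped, as did KRT18, with 574 and 534 FPKM against 564 to 679 FPKM. In a bulk sample fewer cells of a type and less RNA per cell cannot be told apart, and the part of these markers in the number differences was not tested. The labels do not say what a replicate number stands for, so number 2 cannot be told apart from any preparation, passage or run that the libraries numbered 2 share.

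The number result rests on the replicate 2 libraries. With the libraries numbered 1 and 3 alone, an alternative chosen after the data had been seen, 1 member (CHMP4A) and 447 of all genes passed. Without vector replicate 2 the count was 7 members and 3663 genes, and without the filter on low values 6 members and 3389 genes. CD9, SDC4, RAB27A and RAB11A passed in both of these settings, while SNF8, CHMP2A, CHMP6, RAB35, FLOT1 and FLOT2 passed in neither. PDCD6IP and SDCBP passed without the filter and not without vector replicate 2, nor without OE replicate 2, which left 10 members.

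**Figure D4:**
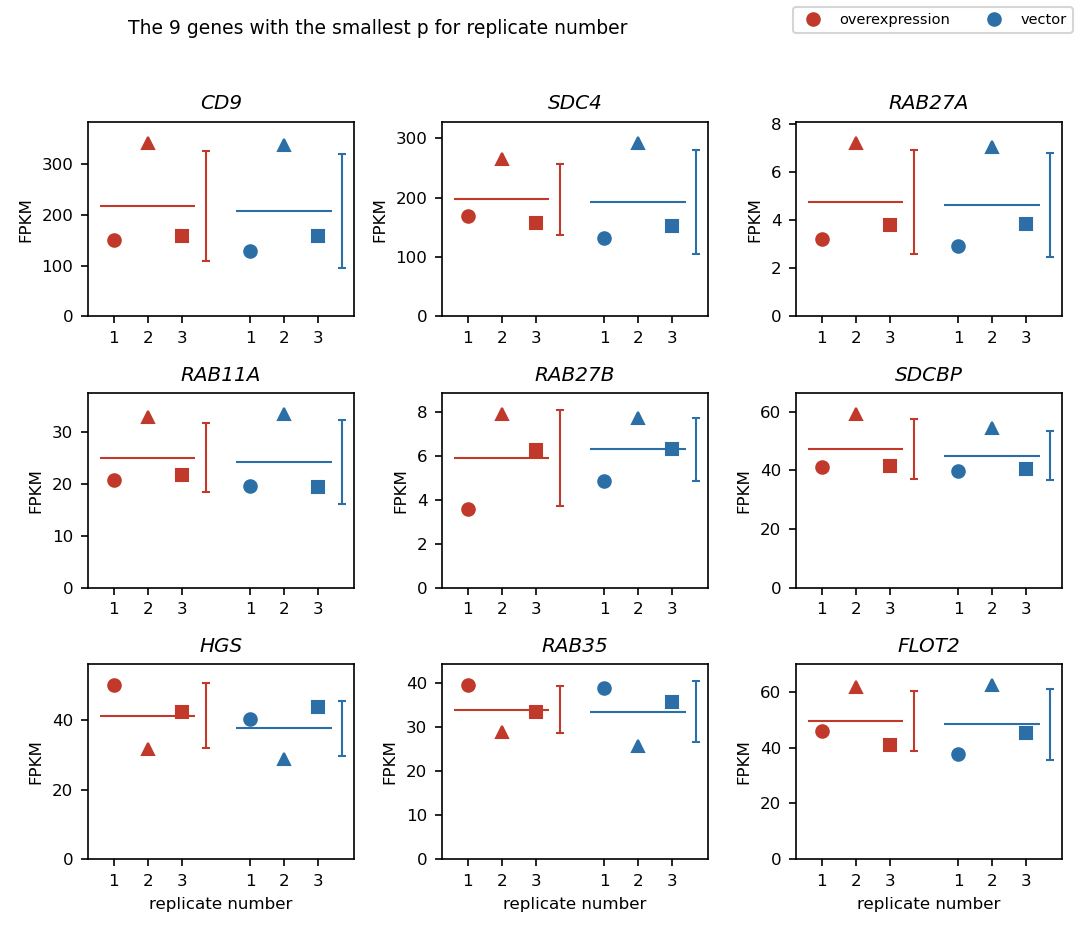
FPKM of the 9 members with the smallest p for replicate number, by replicate number within OE (red, left) and vector (blue, right). Horizontal lines are group means and bars the SD of 3 libraries. In CD9 the libraries numbered 2 reach 343 and 337 FPKM and the other 4 stay between 129.6 and 160 FPKM, and in each panel the group means lie within each other's SD.

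**Figure D5:**
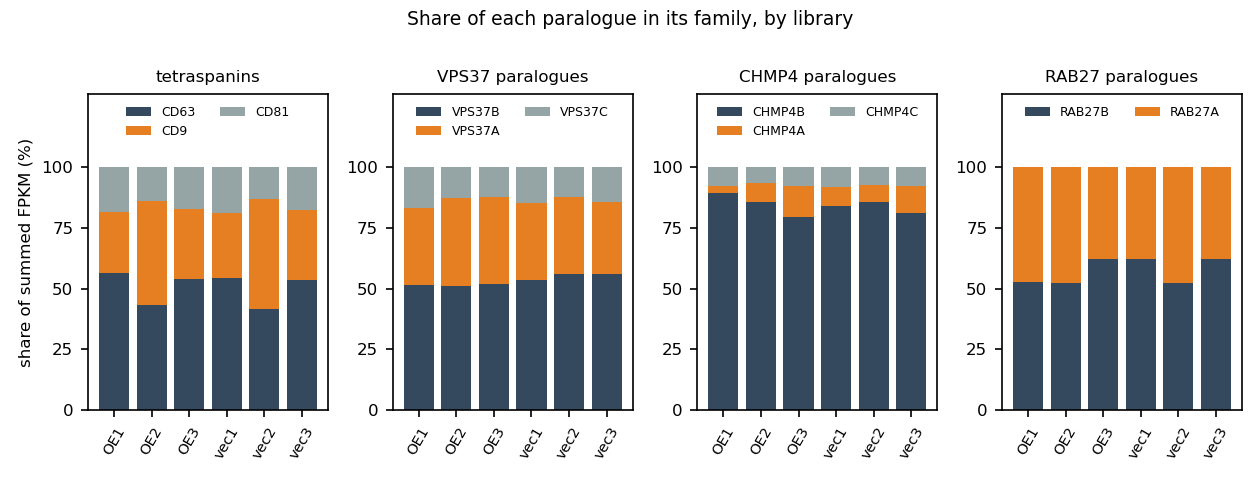
Share of each paralogue in the summed FPKM of its family (%, vertical axis) in the 3 OE and 3 vector libraries, for the tetraspanins, VPS37, CHMP4 and RAB27. CD9 widens in the 2 libraries numbered 2, at 43.1% and 45.4%, and VPS37B is narrower in the OE libraries (51.2% to 51.7%) than in the vector libraries (53.7% to 56.1%).

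Within the CHMP4 family, CHMP4B made up 84.9% ± 4.88 of the summed FPKM of CHMP4A, CHMP4B and CHMP4C in OE and 83.6% ± 2.45 in vector (SD, n = 3 each). Its highest share, 89.2%, was in OE replicate 1, where CHMP4A was low.

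The summed FPKM of a class gives its weight in each group. The 3 tetraspanins summed to 646 ± 131 FPKM in OE and 590 ± 135 FPKM in vector (SD, n = 3 each, as for the sums that follow). The 11 ESCRT-III genes summed to 312 ± 9.68 FPKM in OE and 301 ± 8.91 FPKM in vector. The 5 RAB GTPases summed to 231 ± 16.3 FPKM in OE and 215 ± 6.14 FPKM in vector. The 3 ALIX-syntenin genes summed to 274 ± 74.4 FPKM in OE and 267 ± 100.3 FPKM in vector. In the tetraspanins and the ALIX-syntenin genes the SD far exceeded the difference, with the replicate 2 libraries highest in each group.

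Another 75 genes of the pathway were listed by function, with earlier results of these data known, and examined in the same fits. Of the 68 that were tested, 0 were called between OE and vector by limma with or without the block, at unadjusted p under 0.05 for 1 and 2 genes. LGALS3BP, a secreted glycoprotein found on vesicles, had 253, 237 and 235 FPKM in OE and 167, 197 and 185 FPKM in vector. The groups did not overlap, and the log2 difference was 0.40 ± 0.13 (SE), for which limma gave an adjusted p of 1.0, or 0.290 under the block. STX4, a plasma membrane SNARE, with 20.9, 21.9 and 20.4 FPKM in OE and 15.2, 19.0 and 19.6 FPKM in vector, was the other gene without overlap. These 2 of the 68 were higher in OE, against 2.50% of all genes, and 0 were lower without overlap, against 0.845%. The count is near the background.

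By replicate number 34 of the 68 passed, 50%, beside the 46.5% of all genes. The 6 with the smallest p were PLD1, CD82, TSPAN15, HSPA8, MFGE8 and PLD2. PLD1, a phospholipase D that makes phosphatidic acid, had 12.4 and 14.9 FPKM in replicates 2 of OE and vector, against 2.05 to 4.78 FPKM in the other 4 libraries, a log2 difference of 2.17 ± 0.13 from number 1 (SE, limma). CD82, a tetraspanin known as a metastasis suppressor, had 50.9 and 53.1 FPKM in replicates 2, against 13.1 to 17.3 FPKM. HSPA8, the constitutive chaperone HSC70, went the other way with 261 and 162 FPKM, against 491 to 650.1 FPKM. TSPAN15, MFGE8 and PLD2 were higher in the replicate 2 libraries, with log2 differences from number 1 of 2.02, 1.08 and 1.05.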

How the data were processed

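RNA of 6 SACC-83 libraries, 3 OE and 3 vector, was sequenced by the submitters. TRIzol extraction, mRNA purification and a NEBNext Ultra kit are named per the labels' protocols, and HISAT2 and GRCh38 per the submitters' processing notes; for the counter, annotation, versions and use of strand, nothing is stated. FPKM values were computed by the authors and deposited as 1 table. No whole-read steps were found (at most 0.892% of low genes fell in 1 bin), so depth and counting error are unknown.

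A gene was kept where 3 or more of the 6 libraries reached 1 FPKM (12064 genes). log2(FPKM + 1), which understates changes of low genes, was fitted in R 4.3.3 by limma 3.58.1, using eBayes with trend, Benjamini-Hochberg adjustment and a threshold of 0.05, with group alone as the term. Replicate number was tested by an F test beside group. The scripts were tested on simulated data. Members, gene lists, classes and the rule for named genes (non-overlapping ranges, extremes of each class, paralogue families, and the 10 smallest number p-values) were chosen with earlier results of these data known. Alternatives are given in the closing section. Deviations from the group means, taken across genes, correlated between same-numbered libraries at 0.725 (number 1), 0.881 (number 2) and 0.529 (number 3). These were above the limit of 0.1, and by that rule the numbers were taken to pair the libraries, from the data and not from the labels. The differently numbered pairs of 1 and 3 also passed the limit, at 0.412 and 0.424. Deviations within a group sum to 0, so a number 2 that stands apart in both groups raises all pairs of 1 and 3. The limit can therefore show that the libraries numbered 2 resemble each other, but not that numbers 1 and 3 pair. Library pairs correlated at 0.915 to 0.990 and none was identical. Gene positions, exons and GC content came from GENCODE release 29, promoters from RefSeq.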

Additional observations from a re-analysis of the deposited data

How the results depend on the processing

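No member was called between OE and vector under any alternative tried (pseudocounts 0.1 and 0.5, no filter, a mean FPKM filter of 5, TPM, TMM factors, quantile scaling, no trend, library weights, replicate block, GC and length correction, and each library or number left out). Of all genes, 12 were called with the replicate block, 2 with the replicate block and GC and length correction, 346 with library weights, and 0 to 148 when libraries or numbers were left out; the largest count came without the libraries numbered 2. The block changed no call of a member.

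By replicate number, 6 members and 3389 genes were called without the filter and 1 member and 447 genes with numbers 1 and 3 only, while leaving out 1 library gave 7 to 15 members and 3663 to 6174 genes. The other settings gave 13 to 19 members, and 12 to 15 of the 15 members were kept in them. Without the filter the tests covered more genes; the cause of the other changes was not tested.

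Fold changes between groups were small and their signs unstable. With libraries left out, the median log2 fold change was -0.0251 to 0.0894 for the members, -0.118 to 0.0835 for ESCRT-0, -0.0231 to 0.208 for ESCRT-II, -0.0293 to 0.0723 for ESCRT-III, -0.105 to 0.209 for the ALIX-syntenin genes and -0.135 to 0.161 for the RAB genes. The ESCRT-0 median was 0.0581 with the mean filter and -0.0865 with library weights, which also gave -0.131 for VPS4. The ALIX-syntenin median was 0.0441 in TPM, 0.0438 with TMM factors, 0.0163 with quantile scaling and 0.0812 with the block and GC correction, which gave -0.0385 for ESCRT-I.

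Of 439 values of the named members under the alternatives, 382 kept their sign and 57, in 14 members, reversed. None passed the threshold. CHMP4C was -0.00871 in TPM, -0.00702 with TMM factors and -0.0144 with quantile scaling, where FLOT1 was -0.0134, -0.013 and -0.0446 and FLOT2 -0.0123 in the last. With library weights HGS was -0.0537, CHMP4A 0.0807, VPS4A -0.119, FLOT1 -0.0527 and FLOT2 -0.0986. With the block and GC correction HGS was -0.00376, CHMP4B was -0.0137, CHMP4C was -0.0196, VPS4A was -0.0183, FLOT1 was -0.102 and FLOT2 was -0.0585. With libraries left out, the ranges were -0.293 to 0.495 for CD9, -0.721 to 0.22 for CHMP4A, -0.0293 to 0.0898 for CHMP4C, -0.106 to 0.137 for FLOT1, -0.124 to 0.238 for FLOT2, -0.0496 to 0.303 for HGS, -0.252 to 0.332 for RAB27A, -0.319 to 0.161 for RAB27B, -0.151 to 0.427 for SDC4, -0.0298 to 0.152 for TSG101, -0.121 to 0.109 for VPS37C, -0.0926 to 0.142 for VPS4A and -0.175 to 0.0228 for VPS4B. The number 2 minus number 1 difference of CHMP4A was -0.203 to 1.17. The other 8 named members kept their sign under all alternatives but not their size, with ranges of 0.0947 to 0.307 for VPS28, 0.0953 to 0.204 for VPS37A, -0.204 to -0.054 for VPS37B, 0.0532 to 0.293 for VPS25, 0.135 to 0.276 for CHMP5, 0.0434 to 0.249 for CD63, 0.00194 to 0.219 for CD81 and 0.0102 to 0.202 for RAB7A. For VPS28, VPS37A, VPS37B, VPS25 and CHMP5, named because their ranges did not overlap, leaving out libraries could not reverse the sign. Their kept sign in those settings is therefore no test of stability. The value nearest 0 came with library weights for VPS25, CHMP5, CD63, CD81 and RAB7A.

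With 3 libraries per group and depth unknown, group differences of the size of the intervals above cannot be told from the spread between libraries.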
